A study of Mus musculus with 13 samples.

Results

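Oxidative phosphorylation is carried by 5 membrane complexes of the mitochondrion, and the genes described here are those whose names mark a nuclear-encoded part of one of them. They are the rows of a gene-level table whose gene name begins with Nduf, Uqcr, Cox4 to Cox8 or Atp5, or is Sdha, Sdhb, Sdhc or Sdhd, and they number 90 of 23236 rows. The values come from C2C12, a mouse myoblast line, labelled as myoblasts in both libraries. One RNA-seq library is labelled siNC, by the usual reading a control siRNA, and the other siLinc-Yy1, by the same reading an siRNA to the lincRNA Linc-Yy1. Both are poly(A)-selected cDNA, and the labels name no other agent or genotype, no siRNA sequence and no time of collection. There is 1 library per condition, without replicates, so every value describes this pair of libraries and none carries a test of its own. The remaining 11 samples of the series were not analysed here.

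Electrons from NADH enter at complex I and those from succinate at complex II. They pass through ubiquinone to complex III, then by cytochrome c to complex IV, which reduces oxygen. Complexes I, III and IV pump protons out of the matrix, and complex V, the ATP synthase, lets them back in to make ATP. Growing myoblasts draw much of their ATP from glycolysis, and mitochondrial mass and respiration increase when they differentiate into myotubes. A few subunits of complexes I, III, IV and V are encoded in the mitochondrial genome, and these were not analysed here. Zinc finger factor YY1, nuclear respiratory factor NRF1 and ETS factors such as GABPA are known to act at promoters of nuclear respiratory genes.

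Of the 90 rows, 74 are subunits of the 5 complexes in their general form. Another 4 are assembly factors of complex I (Ndufaf1 to Ndufaf4), and 8 are isoforms restricted to certain tissues. The last 4 share a name and no more than an accessory role. Cox4nb is a subunit of an endoplasmic reticulum membrane complex, Cox7a2l joins complexes III and IV into supercomplexes, and Atp5s and Atp5sl are not subunits of the synthase. Ndufa4, first assigned to complex I, was counted with complex IV. Levels are in FPKM, fragments scaled to the length of the transcript and the size of the library. A mean of at least 1 FPKM over the 2 libraries was reached by 85 of the 90 rows, all 74 subunits among them. The 5 below it were the isoforms Cox4i2, Cox6b2, Cox7b2, Cox8c and Ndufa4l2. Of all 23236 rows, 11792 reached this level.

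The target itself, in the row lincYy1, was scarce at 0.360 FPKM in siNC against 0.227 FPKM in siLinc-Yy1. With at most 28 and 13 fragments, the counting interval of this ratio, 0.312 to 1.31 at its narrowest, spans 1, so its level does not check the labels. Depth, read from the steps of low FPKM values, came to some 66.6 M fragments in the siNC library against 47.2 M in the other, if no further scaling was applied between libraries. Fragment counts and counting intervals, here and below, rest on this estimate, which is too rough for a count test. All 7 myoblast markers were present, summing to 699 FPKM in siNC against 899 FPKM in siLinc-Yy1, with Myod1 at 62.5 and 67.0 FPKM and desmin (Des) at 322 and 487 FPKM. Of 10 markers of other cell types, Adipoq, Cdh5, Epcam, Krt18, Pecam1 and Ptprc lay at or below 0.169 FPKM in both libraries. The 4 others, Pparg, Fabp4, Cd34 and Cd68, summed to 36.9 and 39.8 FPKM. The 6 measured of 7 myotube markers summed to 152 and 191 FPKM, with Ckm at 14.5 and 24.9 FPKM and Myh3 at 3.08 and 1.85 FPKM. The part of differentiation in the values below was not tested.

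Stretches of 7 promoters are shown here for the motifs of the factors named above, since 1 of those factors, YY1, shares its name with the targeted RNA. Each runs from 120 bases before a listed start of the gene to 30 after it, from RefSeq on GRCm38.p6, on the strand of the gene. Where a gene had more than 1 listed start, the stretch with the most matches was taken. The Ndufa7 match takes in an ATG, from which the printed bases run to the end of the stretch without a stop codon. This ATG may thus be the start codon, in which case the listed start lies within the coding sequence. The match may then mark coding sequence and no promoter motif. In the order printed, they lie at chr17:33824525-33824674 (+), chr4:140961151-140961300 (+), chr10:80406792-80406941 (-), chr1:36691367-36691516 (+), chr13:86046766-86046915 (-), chr3:105959234-105959383 (-) and chr15:102671018-102671167 (-). RefSeq lists Atp5f1 as Atp5pb. Capitals mark matches on either strand to CCATNTT (YY1), CATGCGC (NRF1) or CCGGAAG (ETS factors). The genes were picked after the matches were seen, so that each complex and each motif is represented.
Ndufa7 (complex I, YY1): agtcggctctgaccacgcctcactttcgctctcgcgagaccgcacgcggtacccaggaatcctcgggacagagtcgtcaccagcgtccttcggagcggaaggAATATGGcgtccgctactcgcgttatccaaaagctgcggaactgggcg
Sdhb (complex II, NRF1 then ETS): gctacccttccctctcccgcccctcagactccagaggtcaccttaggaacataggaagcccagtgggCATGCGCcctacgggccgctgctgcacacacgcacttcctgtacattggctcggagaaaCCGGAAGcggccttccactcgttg
Uqcr11 (complex III, ETS then NRF1): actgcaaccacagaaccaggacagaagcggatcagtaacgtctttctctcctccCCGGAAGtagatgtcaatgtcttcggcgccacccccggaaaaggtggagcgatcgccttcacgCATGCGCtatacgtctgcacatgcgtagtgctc
Cox5b (complex IV, NRF1): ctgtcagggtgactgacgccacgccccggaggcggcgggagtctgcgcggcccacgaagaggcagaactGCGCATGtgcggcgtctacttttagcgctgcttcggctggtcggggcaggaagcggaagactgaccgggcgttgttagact
Cox7c (complex IV, YY1): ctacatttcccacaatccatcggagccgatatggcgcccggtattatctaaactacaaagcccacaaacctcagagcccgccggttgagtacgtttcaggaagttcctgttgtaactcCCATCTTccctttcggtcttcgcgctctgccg
Atp5f1 (complex V, YY1 in 2 places): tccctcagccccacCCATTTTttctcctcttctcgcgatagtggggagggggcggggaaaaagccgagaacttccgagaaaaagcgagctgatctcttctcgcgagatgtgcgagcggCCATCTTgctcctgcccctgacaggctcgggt
Atp5g2 (complex V, overlapping NRF1 matches on both strands): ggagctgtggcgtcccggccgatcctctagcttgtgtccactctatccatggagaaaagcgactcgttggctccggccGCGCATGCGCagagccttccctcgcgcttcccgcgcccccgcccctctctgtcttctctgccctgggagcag

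In siNC the 74 subunits ranged from 19.8 FPKM (Ndufa11) to 381 FPKM (Atp5b), and 65 of them stood at 50 FPKM or more. The median subunit measured 113 FPKM in siNC against 142 FPKM in siLinc-Yy1. The median row past the filter measured 13.8 and 13.4 FPKM, so these are abundant messengers in both libraries. Summed over the 85 measured rows, they came to 9502 FPKM in siNC against 12001 FPKM in siLinc-Yy1, a ratio of 1.26. The summed FPKM of the whole table had a ratio of 1.25. All 90 rows made up 2.60% of it in siNC and 2.62% in siLinc-Yy1.

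The order of the subunits by level was nearly the same in both libraries, with a Spearman rho of 0.99 across the 74 genes. These genes share both libraries and are not independent replicates. Atp5b, Cox5b, Cox6a1, Ndufa12 and Atp5j2 were the 5 highest in siNC and again in siLinc-Yy1. Levels of parts of the same complex were far from equal. Complex II had the narrowest span, from 54.6 FPKM (Sdhd) to 104 FPKM (Sdhb) in siNC, a factor of 1.90. Complex IV spanned a factor of 2.83, complex III 4.21 and complex V 4.68. Complex I, the largest, spanned 12.6 in siNC and 24.5 in siLinc-Yy1, where Ndufs4 was its lowest part. Such a span tends to widen with the number of genes, from 4 in complex II to 36 in complex I, and was not adjusted for it.

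**Figure D1:**
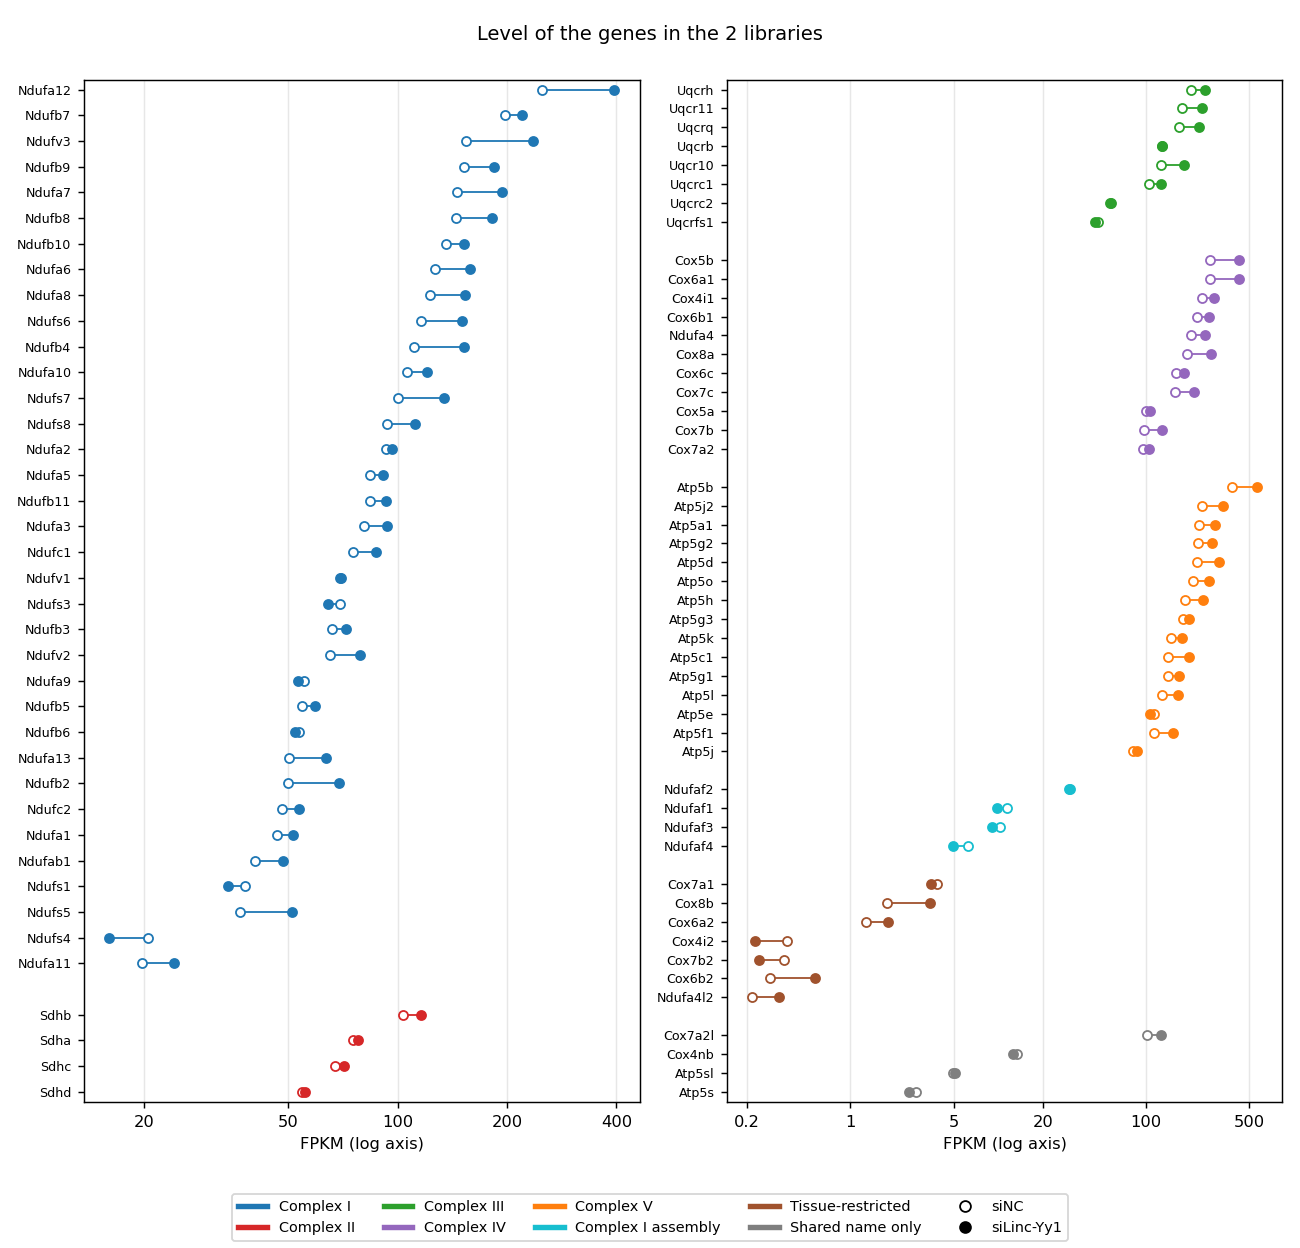
Level of the members with a value above 0, except 1 subunit of complex I that is not plotted, in FPKM on a log axis, in siNC (open circles) and siLinc-Yy1 (filled circles), coloured by complex or group. Atp5b, Cox5b and Cox6a1 lie farthest right, and the tissue-restricted isoforms lie at or below 3.86 FPKM.

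Most subunits were somewhat higher in siLinc-Yy1. Each change below is a difference of log2 values, siLinc-Yy1 less siNC, with 1 FPKM added to every level, which understates the change of low genes. It was above 0 for 65 of the 74 subunits and for 69 of the 85 measured rows, against 45.4% of all rows past the filter. This direction rests on the authors' scaling, and with both libraries set to equal summed FPKM, 30 of the 85 rows were higher and 55 lower. The median change was 0.27 for the 74 subunits and 0.26 for the 85 rows, beside -0.021 for all rows.

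The differences were small. With 1 FPKM added, none of the 85 measured members reached a 2-fold difference, which 1.39% of all rows reached as higher and 0.178% as lower. At least 1.5-fold higher on this scale were 5 of the 85, where 3.28% of all rows were. These were Ndufa12, Ndufv3, Cox5b, Cox6a1 and Cox8b. None of the 85 was 1.5-fold lower on it, where 0.517% of all rows were. No member was among the calls of the authors' deposited table, which took in 1.45% of all rows past the filter, and the lowest q-value of a member there was 0.0599, for Ndufa12. Of the 85 members, 21 had in the authors' deposited table an unadjusted p-value under 0.05, all of them higher, where 3.99% of all rows had such a p-value and were higher. None had one and was lower, where 3.1% of all rows did.

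The excess followed the level of the genes, while the shares of all rows given above are over all levels. The median mean level was 113 FPKM for the 85 members and 13.6 FPKM for all rows past the filter. For the deposited p-values no share at like level was computed, so their count is not particular to the members. Most abundant rows outside the members were also higher in siLinc-Yy1, so each group of members was set beside the other rows of like mean FPKM. These other rows include the cytosolic ribosomal proteins described below. Between 50 and 100 FPKM the 21 members had a median change of 0.11 and the 999 other rows 0.15. Between 100 and 150 FPKM the medians were 0.31 for 18 members and 0.26 for 280 others, and between 150 and 200 FPKM 0.37 for 12 members and 0.33 for 137 others. In these 3 ranges the medians of members and others lay within 0.05 of each other, and neither was the higher throughout. Between 200 and 300 FPKM the 13 members had a median of 0.35 and the 108 others 0.40. Between 300 and 500 FPKM, the 4 members (Atp5b, Cox5b, Cox6a1 and Ndufa12) had a median of 0.65 and the 77 others 0.64. In this highest range 3 of the 4 members and 61.0% of the other rows were at least 1.5-fold higher. Below 50 FPKM, where members were few, the medians lay farther apart. They were 0.14 for 7 members and 0.026 for 2728 others between 20 and 50 FPKM, with 4 of the 7 above the others' upper quartile. Between 5 and 20 FPKM they were -0.18 for 6 members and -0.071 for 4645 others, and between 1 and 5 FPKM 0.095 for 4 members and -0.092 for 2640 others. Over the levels from 50 to 500 FPKM, 38 of 68 members lay below the median of the others at their level and 30 above it.

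**Figure D2:**
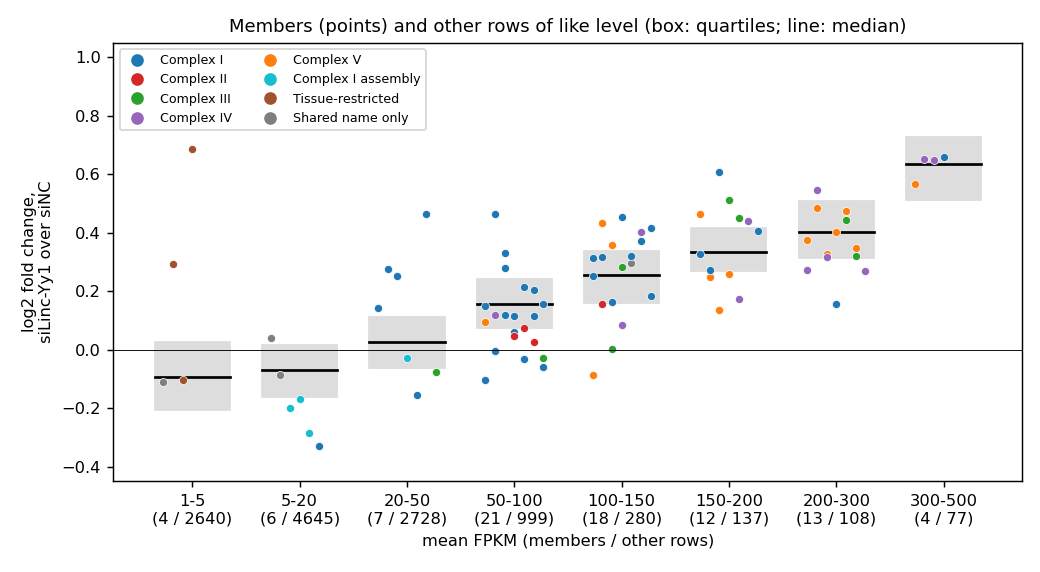
Log2 change from siNC to siLinc-Yy1 (vertical axis) of the members, as points coloured by group, in 8 ranges of mean FPKM (horizontal axis, with the numbers of members and other rows). Grey boxes span the quartiles of all other rows and the black line is their median, which climbs from -0.092 at 1 to 5 FPKM to 0.64 at 300 to 500 FPKM. The members' median is 0.095 in the lowest range, -0.18 in the next and 0.65 in the highest.

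A median running along the rows, sorted by level, gave the same comparison gene by gene. Less this trend, the median of the 85 members was -0.017, with 38 above the trend and 47 below, where 50.1% and 49.6% of all rows were. Above about 300 FPKM the running median is flat and falls short of the climb, so values less the trend are too high for the most abundant genes. Among the 74 subunits the change was larger at higher levels in siNC, with a Pearson r of 0.61 (log2 of FPKM + 1) and a Spearman rho of 0.59 across genes. These points share both libraries, and the siNC value enters both axes.

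**Figure D3:**
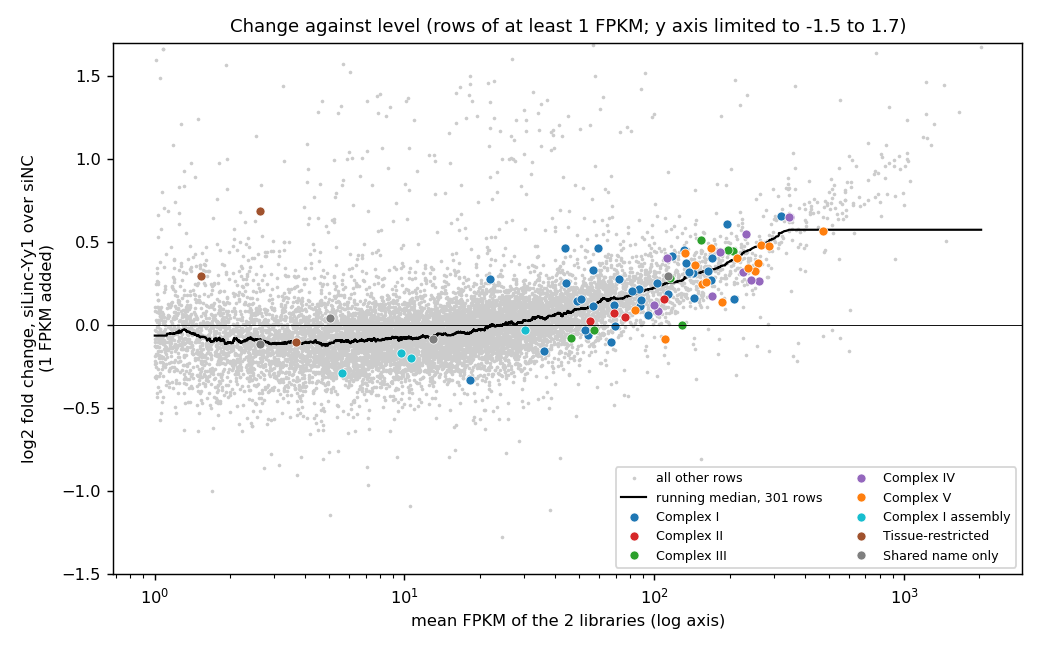
Log2 change from siNC to siLinc-Yy1 (vertical axis) against mean FPKM (horizontal log axis) for all rows of at least 1 FPKM in grey, with the members coloured by group and the running median in black. The subunits lie on both sides of the running median, 33 of 74 above it and 41 below.

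Complex I takes electrons from NADH through a flavin and a chain of iron-sulphur clusters. Its 36 measured subunits had a median change of 0.23, with 30 higher and 6 lower. Less the trend the median was 0.022, with 20 above and 16 below. The 7 core subunits, which carry the flavin and the clusters, were divided. Ndufs7, which holds the last cluster before ubiquinone, measured 100.4 FPKM in siNC against 134 FPKM in siLinc-Yy1. Ndufs8, another iron-sulphur subunit, measured 93.3 and 111 FPKM, and Ndufv2 65.0 and 79.0 FPKM, all higher in siLinc-Yy1. Of the 7, 4 were higher and 3 lower. Among the lower ones, Ndufv1, the flavin subunit, measured 69.6 and 69.3 FPKM, Ndufs1, the largest subunit, 38.1 and 34.1 FPKM, and Ndufs3 69.4 and 64.4 FPKM. The Ndufs1 row shares its locus with Gm11602, so reads may be divided between them. With Ndufs3 at -0.26 and Ndufs7 at 0.16 less the trend, core subunits lay on either side of genes of like level.

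Of the 29 accessory subunits of complex I, 26 were higher in siLinc-Yy1. Ndufa12, located on chromosome 10, 93661754 to 93683693 (mm9, as for all positions below), stood at 249.5 FPKM in siNC against 395 FPKM in siLinc-Yy1. The ratio of 1.58 gave a change of 0.66, and 0.10 less the trend. Ndufa12 is the most abundant part of complex I in both libraries. Ndufv3, on chromosome 17 (31657060 to 31668270), measured 154 and 235 FPKM, a change of 0.61 and 0.23 less the trend. Ndufs5 (36.9 and 51.2 FPKM), Ndufb2 (49.8 and 69.1 FPKM) and Ndufa11 (19.8 and 24.2 FPKM) lay farthest above genes of like level, at 0.39, 0.33 and 0.29 less the trend. The Ndufs5 row shares its locus with BC002163, so reads may be divided between these 2 rows.

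The accessory subunits that were lower were Ndufs4, Ndufa9 and Ndufb6. Ndufs4, loss of which causes Leigh syndrome and which is widely used to model complex I deficiency in mice, measured 20.5 FPKM in siNC, against 16.1 FPKM in siLinc-Yy1. It lies on chromosome 13 (115078003 to 115178302). Its change of -0.33 was the lowest of all 85 measured members, and less the trend it was -0.29. Ndufa9 measured 55.3 and 53.1 FPKM and Ndufb6 53.5 and 52.3 FPKM. Ndufb7, an abundant subunit at 197 and 219 FPKM, was higher in siLinc-Yy1 but stood at -0.24 less the trend.

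Assembly factors build complex I without staying in it. The 4 that the name rule takes were all lower in siLinc-Yy1, where 54.6% of all rows were. That share is over all levels, and other rows of 5 to 20 FPKM were mostly lower too, with an upper quartile of 0.015. Ndufaf4 measured 6.28 and 4.97 FPKM, Ndufaf1 11.4 and 9.79 FPKM, Ndufaf3 10.3 and 9.09 FPKM and Ndufaf2 30.8 and 30.1 FPKM. Their median change was -0.18, against -0.071 for other rows of 5 to 20 FPKM, the range that holds 3 of the 4. Less the trend it was -0.11, with none of the 4 above the trend. A wider list of 28 assembly and expression factors for complexes I to V with other names had 25 measured members. Of these 18 were lower and 7 higher, with a median of -0.051, or -0.019 less the trend. Its members with the largest differences were Nubpl, which serves the iron-sulphur clusters of complex I (7.67 and 5.93 FPKM), Cox11, a copper chaperone (4.33 and 3.39 FPKM), Taco1 (14.0 and 11.6 FPKM) and Atpaf1, which assembles the F1 part of the synthase (10.8 and 9.41 FPKM).

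Complex II, succinate dehydrogenase, is also an enzyme of the citric acid cycle and has no subunit from the mitochondrial genome. Its 4 genes were nearly level between the libraries. Sdha, the flavoprotein, measured 75.4 FPKM in siNC against 77.8 FPKM in siLinc-Yy1, and Sdhb, the iron-sulphur protein, 104 and 116 FPKM. The membrane anchors Sdhc and Sdhd measured 67.4 and 71.0 FPKM, respectively 54.6 and 55.6 FPKM. The median change of 0.059 was the smallest of the 5 complexes. Less the trend all 4 lay below 0, from -0.13 to -0.086. The 16 measured genes of the citric acid cycle and pyruvate dehydrogenase had a like median of 0.056, or -0.080 less the trend, with 5 above it and 11 below. Among them Mdh2 measured 244 and 332 FPKM, Cs 154 and 197 FPKM and Suclg2 25.3 and 20.8 FPKM.

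Complex III passes electrons from ubiquinol to cytochrome c. Its 8 subunits had a median change of 0.30, with 6 higher and 2 lower, and -0.043 less the trend. The small subunits Uqcr10 (127 and 181 FPKM), Uqcrq (167 and 228 FPKM) and Uqcr11 (175 and 239 FPKM) had the largest differences, with Uqcr10 at 0.51, or 0.20 less the trend. The hinge protein Uqcrh measured 200.4 and 250.4 FPKM and the core protein Uqcrc1 104 and 127 FPKM. Other parts did not share this excess. Uqcrb stood at 129 FPKM in both libraries, the core protein Uqcrc2 at 57.9 and 56.8 FPKM and the Rieske iron-sulphur protein Uqcrfs1 at 47.6 and 45.1 FPKM. The Uqcrc2 row shares its locus with Pdzd9. At the level of Uqcrb other rows were higher, which left it at -0.27 less the trend. Cyc1, cytochrome c1 of the same complex, measured 147 and 167 FPKM, and Cycs, cytochrome c itself, 33.0 and 33.7 FPKM.

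Complex IV, cytochrome c oxidase, had 11 general subunits, all higher in siLinc-Yy1, though its median moved from 0.32 to -0.0032 with equal summed FPKM. Cox5b, on chromosome 1 (36748332 to 36750233), stood at 271 FPKM in siNC against 426 FPKM in siLinc-Yy1. Cox6a1, on chromosome 5 (115795663 to 115798964), measured 269 and 423 FPKM. The changes of 0.65 for each stood beside a median of 0.64 for other rows of 300 to 500 FPKM. Cox8a (188 and 275 FPKM), Cox7c (156 and 212 FPKM) and Cox7b (96.8 and 128 FPKM) followed. At the other end, Cox5a measured 100.5 and 107 FPKM, Cox7a2 95.7 and 104 FPKM and Cox6c 160 and 181 FPKM. Cox4i1, the largest nuclear subunit, measured 238 and 287 FPKM and Cox6b1 220.1 and 266 FPKM, at -0.21 and -0.18 less the trend. Less the trend 5 of the 11 lay above 0 and 6 below, with a median of -0.10, the lowest of the 5 complexes.

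The Cox4i1 and Cox4nb loci lie 177 bases apart on chromosome 8 and differ in level. Cox4nb measured 13.4 FPKM in siNC against 12.6 FPKM in siLinc-Yy1, while Cox4i1 was more abundant by more than an order of magnitude. Other neighbouring members were spread farther, such as Ndufs8 and Ndufv1 on chromosome 19, with 94787 bases between them.

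Several complex IV subunits have a second gene used in heart and skeletal muscle, in lung or in testis. In both libraries the general isoform made up nearly all the messenger. Cox6a1 held 99.5% of the summed COX6A level in siNC and 99.6% in siLinc-Yy1, with the muscle isoform Cox6a2 at 1.28 and 1.80 FPKM. The Cox6a2 row overlaps Itgad and another row, so its value is uncertain. Cox7a2 held 96.1% and 96.7% of COX7A, with the muscle isoform Cox7a1 at 3.86 and 3.52 FPKM. Of the isoform families, COX7A had the largest share from a tissue-restricted gene.

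Cox8b, the isoform of striated muscle and brown fat (chromosome 7, 148084841 to 148086345), stood at 1.78 FPKM in siNC against 3.48 FPKM in siLinc-Yy1. This is a ratio of 1.95, from at most 179 and 248 fragments, and its counting interval (95%, exact binomial) was 1.61 to 2.38 at its narrowest, covering counting error only. The interval rests on the rough depth given above and is no count test. With 1 FPKM added to each value the change was 0.69, the largest of the 85 measured members, and 0.77 less the trend. Cox8a, the general isoform, still held 99.1% of COX8 in siNC and 98.8% in siLinc-Yy1. The q-value of Cox8b in the authors' deposited table was 0.202. The myotube marker Ckm was also higher in siLinc-Yy1 while Myh3 was lower, as given above, and the part of differentiated cells in the Cox8b value was not tested.

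The other restricted isoforms were scarce. Cox4i2, an isoform of lung that responds to hypoxia, measured 0.372 and 0.227 FPKM, and Cox7b2 0.359 and 0.241 FPKM. Cox6b2, a testis isoform, measured 0.286 and 0.578 FPKM from at most 25 and 35 fragments, with a counting interval of the ratio of 1.15 to 3.44 at its narrowest. That interval, too, rests on the rough depth and is no count test. Ndufa4l2, a hypoxia-induced relative of Ndufa4, measured 0.218 and 0.328 FPKM with status FAIL, in a locus shared with Shmt2. Cox8c was listed at 0 in both libraries. Ndufa4 itself measured 202 and 252 FPKM.

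Complex V couples a catalytic F1 head to a proton channel, Fo, through a stalk. Its 15 subunits had the largest median change of the 5 complexes, 0.36, with 14 higher and 1 lower, and it was 0.039 with equal summed FPKM. Less the trend the median was -0.070, with 4 above and 11 below. In the F1 head, the catalytic beta subunit Atp5b measured 381 FPKM in siNC against 564 FPKM in siLinc-Yy1, and the alpha subunit Atp5a1 227 and 294 FPKM. The Atp5b row shares its locus with Mir677. The gamma subunit Atp5c1, the rotor shaft, measured 142 and 196 FPKM, and the delta subunit Atp5d 222 and 311 FPKM. The epsilon subunit Atp5e went the other way, at 113 and 107 FPKM. At -0.33 less the trend it was the lowest of all members on that scale.

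Subunit c, which forms the ring of the proton channel, is encoded by 3 genes that give the same mature protein. Atp5g2 measured 224 FPKM in siNC against 281 FPKM in siLinc-Yy1, Atp5g3 178 and 195 FPKM and Atp5g1 141 and 168 FPKM. Their sum was 543 and 645 FPKM. The shares were close in the libraries, with Atp5g2 at 41.2% and 43.6%, Atp5g3 at 32.7% and 30.3% and Atp5g1 at 26.0% and 26.1%. All 10 subunits of Fo and the stalk were higher in siLinc-Yy1. They ranged from Atp5j (81.3 and 86.8 FPKM), in a locus shared with Gabpa, to Atp5j2 (239.8 and 333 FPKM). Atp5f1, a stalk subunit whose locus is shared with Wdr77, measured 113 and 153 FPKM and stood highest of complex V less the trend, at 0.15. Atpif1, the inhibitor protein of the synthase and no member by name, measured 211 and 334 FPKM and was called higher in the authors' deposited table, with a q-value of 0.0373.

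**Figure D4:**
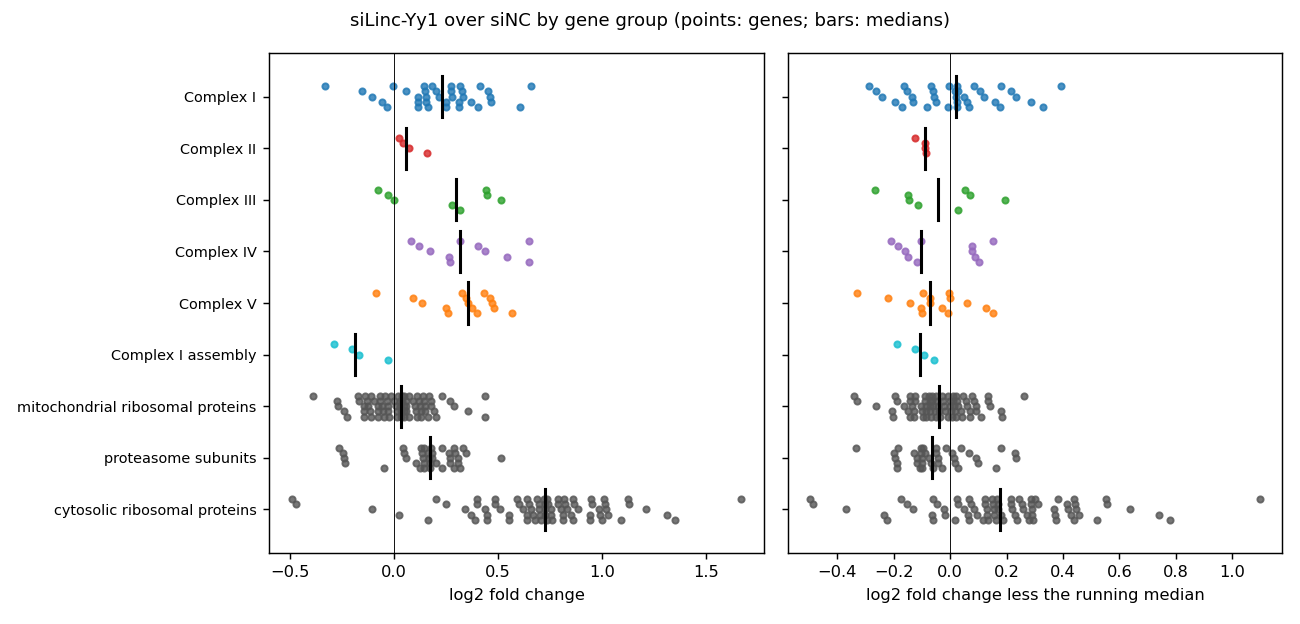
Log2 change from siNC to siLinc-Yy1 (left) and the same less the running median (right) for each gene (points) with the group's median (black bar), for the 5 complexes, the complex I assembly factors and 3 other groups of abundant housekeeping genes. On the left, the medians of the 5 complexes run from 0.059 for complex II to 0.36 for complex V, with the assembly factors at -0.18 and the cytosolic ribosomal proteins at 0.73. On the right, those of all 5 complexes lie between -0.10 and 0.022.

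Set beside other groups of housekeeping genes, the respiratory subunits lay with those of the proteasome and the mitochondrial ribosome once level was taken into account. The 38 measured proteasome subunits had a median change of 0.18, or -0.063 less the trend. The 76 mitochondrial ribosomal proteins, which translate the mitochondrial part of the same complexes, had a median of 0.033, or -0.040 less the trend. The 76 measured cytosolic ribosomal proteins, more abundant still at a median of 384 FPKM in siNC, had 0.73, or 0.18 less the trend, where the trend falls short at high levels. By count, 56 of these 76 cytosolic ribosomal proteins were at least 1.5-fold higher, against 5 of 85 members and 3.28% of all rows. The groups differ in level. Of all rows that are not members, 61.0% at 300 to 500 FPKM and 4.64% at 100 to 150 FPKM were at least 1.5-fold higher. None of the proteasome or mitochondrial ribosomal genes was. The rows that are not members include the cytosolic ribosomal proteins, so these shares are no separate background for that group. Its median level, averaged over both libraries, was 516 FPKM, above the highest of these ranges. No share without the group was computed. The difference between groups was not tested, as there is 1 library per condition.

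Regulators of nuclear respiratory genes were close in both libraries. Of 13 listed, 12 were measured, 4 higher and 8 lower, with a median change of -0.030. Yy1 measured 28.6 and 30.9 FPKM, Hcfc1, a cofactor at such promoters, 33.1 and 38.0 FPKM, Tfam, which packages and transcribes mitochondrial DNA, 10.8 and 9.57 FPKM, and Gabpb1 21.9 and 20.2 FPKM. Ppargc1a, the coactivator that drives mitochondrial biogenesis in muscle, was scarce at 0.288 and 0.274 FPKM, and Nrf1 measured 19.9 and 19.6 FPKM, both picked here with their values known.

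Promoter sequences of 300 bases, 250 before a listed start and 50 after, were matched for 74 of the 90 members. A gene counted as holding a motif when any of its listed promoters did, so the shares depend on how many it has. The YY1 letters CCATNTT, as in the stretches of Cox7c and Atp5f1 printed above, were in 22 of the 74 (29.7%). They were in 18.1% of genes of at least 1 FPKM and 18.2% of all genes with a promoter sequence. The NRF1 letters CATGCGC were in 14 (18.9%), against 8.15% and 4.41%, and the ETS letters CCGGAAG in 17 (23.0%), against 21.1% and 9.93%. Members of complexes I and V held most of the YY1 matches, 12 of 32 and 6 of 14, while the 3 of complex II and the 5 of complex III with a sequence held none. A match describes letters in a window and is not a site. Read on the opposite strand, the YY1 letters hold an ATG, so some matches may be start codons, which was not tested.

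Of the 28 YY1 matches in members, 16 (57.1%) began within 50 bases of the start, beside 42.1% of 1985 matches in genes of at least 1 FPKM. Such a match was in 16 of the 74 members (21.6%) and in 8.61% of genes of at least 1 FPKM. The 16 included Atp5b and Atp5c1, with matches on the strand of the gene that begin at bases 19 and 28 after the start. They also included Ndufs7 and Ndufs4, with matches on the opposite strand at bases 25 and 36. Each of these matches holds an ATG. Most of the 16 were on the opposite strand and after the start, and start codons among them were not told apart. Members with and without the YY1 letters had much the same change, a median of 0.26 for 22 and 0.27 for 50 measured members. Over all genes of at least 1 FPKM both medians were -0.020, for 1658 genes with the letters and 7520 without. Members with the NRF1 letters had a median of 0.31 (14 members, median level 144 FPKM) and those without 0.23 (58 members, 101.2 FPKM), so level differed along with the motif. Ndufs4, the measured member with the lowest change, and Atp5b, among the higher ones, both held the YY1 letters.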

How the data were processed

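RNA-seq of 2 libraries of C2C12 myoblasts was read from 1 gene-level table, deposited as 2 identical copies. Its values are FPKM that the authors estimated with Cuffdiff, per the file headers. Beside them stand p-value, q-value and log2 fold change from the authors' own test, also per the file headers, and this deposited log2 column served only to check direction. Cuffdiff 2.0.4, Cufflinks 2.1.1 and TopHat2 2.0.4 are listed in the submitters' processing notes, with mm9 as the build. For the annotation, strand, scaling between libraries and multi-mapped reads, nothing is given in the sources here. Subunit genes have processed pseudogenes, so single values can be off. The columns were assigned from the order of siNC and siLinc-Yy1 in the header.

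Changes were computed in Python 3.11.15 with 1 FPKM added, for rows with a mean of at least 1 FPKM. The level trend is a running median over rows sorted by mean FPKM, tested on simulated data. There its error was checked only outside the 301 rows at either end of the order. The test thus does not cover the trend at the most abundant genes. Depth came from single-exon receptor rows, of which too few (58.1% of 630 for siNC, 49.0% of 529 for siLinc-Yy1) gave whole fragments within 0.02 for a count test. Cytosolic ribosomal genes exclude S6 kinases and similar names. All members could be named, and up to 4 of each other list by size of change; a few of these are not reported here by name. Members and lists were chosen with earlier results of these data known. The alternatives tried were 0.1 or 5 FPKM as the pseudocount, all rows without a filter, a mean of at least 5 FPKM, equal summed FPKM, median centring, a 1.5-fold threshold, the authors' calls, status OK alone and a narrower running median. A trend without members and the omission of the 11 members with overlapping loci were added after the data were seen.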

Additional observations from a re-analysis of the deposited data

How the results depend on the processing

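No paired analysis was possible because each condition has 1 library. With no replicate spread, a median counted as moved when it shifted by at least 0.1 on the log2 scale. Equal summed FPKM lowered the median of all rows from -0.021 to -0.30. The members' median became -0.060, with complex I at -0.084, II at -0.26, III at -0.020, IV at -0.0032, V at 0.039, the assembly factors at -0.47 and the isoforms at 0.096. Of the 85 measured members, 39 changed sign. Less the running median, the members' median was -0.017, with complex I at 0.022, II at -0.090, III at -0.043, IV at -0.10 and V at -0.070. With a narrower window these were -0.025, 0.023, -0.074, -0.017, -0.077 and -0.060. With the trend taken from non-members they were -0.017, 0.020, -0.091, -0.043, -0.10 and -0.071. The isoforms' median of 0.29, over 3 genes, became 0.46 and 0.11 with 0.1 and 5 FPKM added and 0.063 over 8 genes with no filter. The count of members at least 2-fold changed was 0 under each scaling, pseudocount and filter run, and 5 were higher at 1.5-fold. All rows at least 2-fold higher and lower numbered 164 and 21. They were 109 and 7 with 5 FPKM added, 89 and 38 with equal summed FPKM and 387 and 61 at 1.5-fold. The lower count was 39 with no filter and 7 at a mean of at least 5 FPKM. The share of higher calls among all rows thus depends on scaling. Centring on the median, status OK alone and the omission of overlapping loci left every complex median within 0.1. With a mean of at least 5 FPKM no isoform is left. The causes were not tested. Depth limits the scarce isoforms.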
